A study of Mus musculus and blank sample with 768 samples.

Results

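The 9 genes described here were grouped as immune-regulating genes of lymph node endothelium, though not all had reads in its kept cells: Cd274, Pdcd1lg2, Cd276, Il4i1, Lgals9, Il7, Tnfsf11, Tnfrsf11a and Ltbr. They were chosen by name from 51734 gene symbols with earlier results of these data known, so counts of members set beside all genes are descriptive. All 9 had a row in both deposited tables of reads. The study asked whether lymphatic endothelial cells contribute to blood vessels of tumours. It sequenced single mouse cells sorted on CD45 (a leukocyte protein, encoded by Ptprc), CD31 (an endothelial protein, encoded by Pecam1) and GFP. In the labels, GFP marks cells of the Csf1r lineage, and GFPlow cells are named as potential members of that lineage; Csf1r encodes the receptor of the macrophage growth factor CSF1.

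After filtering, 98 GFP+, 79 GFPlow and 74 GFP- endothelial cells (CD45-, CD31+) of lymph node were kept. They came in pools: GFP+ and GFP- cells from pools A, B and C, and GFPlow cells from pools B, C and D. From tumour there were 84 and 85 GFP+ endothelial cells on plates KM3 and KM4, 84 GFP- endothelial cells on plate KM2, and 81 macrophages (CD45+, CD31-, GFP-) on plate KM1. From blood there were 7 GFP+ cells. The labels give no genotype, age, tumour type, treatment or animal, so what the groups share in these respects is not known, and each gate counts as 1 sample. Hence no test between gates was possible, and pools and plates are shown side by side as the available view of spread. In the tumour each plate held 1 gate, so gate and plate cannot be told apart there.

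Lymph node endothelium lines high endothelial venules, through which lymphocytes enter from blood, and sinuses, through which lymph flows. The subcapsular sinus has a ceiling towards the capsule and a floor towards the lymphocytes, and the floor is known for MAdCAM-1 (Madcam1) and the ceiling for the scavenging chemokine receptor ACKR4. Lymphatic endothelial cells of the node can restrain T cells through PD-L1 (Cd274), can sustain T cells with IL-7, and depend on lymphotoxin and RANK signals for their organisation.

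The level of a gene in a group is given as CPM: its reads, summed over the group's cells, per 1000000 reads of those cells, with an exact Poisson 95% interval. Shares are the percentage of cells with at least 1 read, with exact Clopper-Pearson 95% intervals. Limits given for a share of 0 are instead 3 cells out of those of the group. For 98 cells this is 3.06%, where the exact interval reaches 3.69%. Reads are PCR copies without molecular identifiers, so all intervals cover counting error only. Kept cells had 58373 to 3123112 reads. Median depth ranged from 609243.5 reads in lymph node GFP- cells to 1238819 in GFPlow cells. CPM are not scaled for gene length, so values are compared between groups for 1 gene and not between genes.

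Marker genes largely matched the gates outside blood. Ptprc had reads in 1 cell of each lymph node gate, in 0 tumour endothelial cells and in 91.4% of macrophages. Pecam1 had reads in 89.8% to 97.6% of the cells of the endothelial gates. The lymphatic factor Prox1 had reads in 79.6% of GFP+, 74.7% of GFPlow and 36.5% of GFP- lymph node cells, and in 1 tumour GFP+ cell. Of 8 pan-haematopoietic markers, 0 reached 30% of cells in any lymph node gate, where their summed level was 59.4 to 149.5 CPM. All 8 did so among macrophages and in the 7 blood cells, where the sum was 5620 CPM. Ptprc had reads in 5 of those blood cells and Pecam1 in 3, and only 1 of 12 pan-endothelial markers reached 30%. These cells go against their CD45-, CD31+ label and enter no comparison between groups, but those of pool D enter the ranking of genes by likeness to a member.

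Il4i1 was the member that set the lymph node GFP+ gate apart most clearly. It encodes a secreted L-amino acid oxidase that degrades phenylalanine and aromatic amino acids and restrains T cells. Its level was 1226 CPM (1219 to 1233) in GFP+, 953.9 CPM in GFPlow and 230.6 CPM (226.34 to 234.98) in GFP- lymph node cells. It was read in 92 of 98 GFP+ cells (93.9%, 87.1 to 97.7), 60 of 79 GFPlow cells (75.9%) and 24 of 74 GFP- cells (32.4%, 22.005 to 44.3). The lowest, median and highest GFP+ cells had 0, 1043 and 4152 CPM. In the GFP- gate the median cell had 0 reads, yet the highest reached 4018 CPM, so the gates overlapped at the level of single cells while the share of positive cells differed.

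Pool by pool, GFP+ cells held 1083, 1134 and 1531 CPM of Il4i1 in pools A, B and C. GFP- cells held 116.2, 360.4 and 212.6 CPM in those pools. GFPlow cells held 658.7, 975.7 and 1008 CPM in pools B, C and D. All 3 GFP+ pools and all 3 GFPlow pools lay above all 3 GFP- pools, and all GFP+ pools above all GFPlow pools. The log2 ratio of GFP+ over GFP- cells was 2.4, and 3.21, 1.65 and 2.84 within pools A, B and C.

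Outside the lymph node Il4i1 was close to absent. In tumour, 1 GFP+ cell had reads (0.236 CPM), and 5 of 84 tumour GFP- cells did (13.6 CPM). Macrophages had 1.71 CPM from 2 cells and blood cells 0.404 CPM from 2 reads. The gene (ENSMUSG00000074141.13) spans chr7:44816387-44840809 on the plus strand of GRCm38 and overlaps Nup62 on the same strand and Atf5 and Tbc1d17 on the other. Whether the authors' counting used strand is not given in the sources used here, so how far reads of these genes were told apart is not known. Nup62 had 41.99, 74.6 and 17.8 CPM in the GFP+, GFPlow and GFP- lymph node gates and 33.6 CPM in tumour GFP+ cells. Tbc1d17 had 86.3, 75.7 and 83.2 CPM in the 3 lymph node gates. Atf5 had 11.6, 5.16 and 4.11 CPM there, in the same order as Il4i1 at a far lower level, with 0.151 CPM in tumour GFP+ and 2.27 CPM in tumour GFP- cells. The part of shared reads in the values of Il4i1 was not tested.

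Marker lists of some blood cells, summed, ran in the same order over the lymph node gates. The summed level of 6 neutrophil markers was 1144, 611.8 and 71.8 CPM in GFP+, GFPlow and GFP- cells. Of these markers 1, 1 and 0 reached 30% of cells, and Ly6g and Retnlg were at 0 in each gate. In GFP- cells S100a8, S100a9 and Csf3r were at 0 too, so that sum came from Mmp9 alone. The sum of 6 platelet markers was 657.97, 491.1 and 18.1 CPM, with 2, 1 and 0 at 30% and Gp1bb and Treml1 at 0. In GFP+ cells the neutrophil marker Csf3r and the platelet marker Gp9 were at 0 as well. Itga2b is in the platelet list and also among the sinus floor markers, so part of the platelet sum counts a floor marker. The 14 macrophage markers ran the other way, at 1020, 1290 and 2184 CPM, with 3, 2 and 1 of them at 30% of cells. The part of such cells in the values of Il4i1 was not tested.

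**Figure D1:**
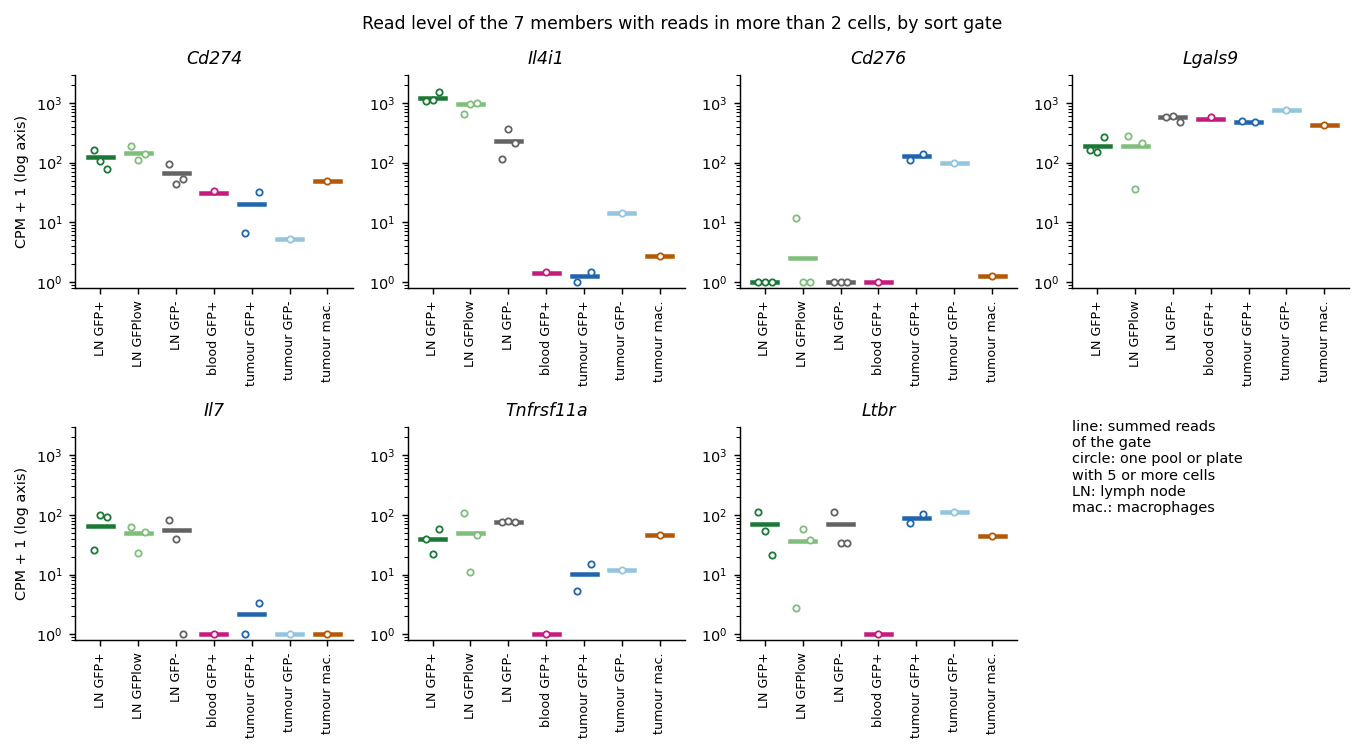
Level (CPM + 1, log axis) of each of the 7 members with reads in more than 2 cells, by gate, with a line for the summed reads of the gate and a circle for each pool or plate with at least 5 cells. Il4i1 stood at 1226 and 953.9 CPM in lymph node GFP+ and GFPlow cells and at 0.236 CPM in tumour GFP+ cells, and the lines of Cd276 were high in both tumour endothelial gates and at or near 0 elsewhere.

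Cd274 encodes PD-L1, the ligand that inhibits T cells through the receptor PD-1. It lies at chr19:29367455-29388095 (plus strand, ENSMUSG00000016496.7). Its level was 123.3 CPM (121.1 to 125.6) in lymph node GFP+, 141.4 CPM in GFPlow and 67.1 CPM (64.8 to 69.5) in GFP- cells; 47.96%, 36.7% and 24.3% of the cells had a read. Pools A, B and C held 164.2, 107.3 and 75.8 CPM in GFP+ cells and 92.1, 42.9 and 52.6 CPM in GFP- cells. GFPlow cells held 189.6, 111.2 and 138.6 CPM in pools B, C and D. GFP+ cells exceeded GFP- cells in each of the 3 shared pools, but the ranges of pools overlapped, and the log2 ratio of 0.87 was under 2-fold.

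Tumour cells had less Cd274. Its level was 19.1 CPM in tumour GFP+ cells (13 cells, 7.69%), 4.15 CPM in tumour GFP- cells (3 of 84) and 48.5 CPM in macrophages (23 of 81). One GFP+ cell held 41.3% of the GFP+ reads, and without it the level was 11.3 CPM. The plates differed: KM3 had 5.68 CPM from 4 cells and KM4 31.7 CPM from 9 cells. The tumour GFP+ excess over GFP- cells was thus a log2 ratio of 1.97 over both plates, 0.38 with KM3 alone and 2.67 with KM4 alone.

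The neighbouring gene Pdcd1lg2 (chr19:29410919-29471161), which encodes the other PD-1 ligand PD-L2, had reads in 2 macrophages, at 44.6 and 58.5 CPM, and in no other kept cell. Among cells that failed the filter, 1 lymph node GFPlow cell had 57 reads of it. For a lymph node gate, 0 reads in 98 GFP+ cells allow a share of up to 3.06% of cells with a read.

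Cd276 encodes B7-H3, a B7 family protein known from tumour vessels and reported to inhibit T cells. It separated tumour from lymph node endothelium. Its level was 126.8 CPM (125.1 to 128.6) in tumour GFP+ cells, with reads in 76 cells (44.97%), and 96.4 CPM in tumour GFP- cells, with reads in 36 of 84 (42.9%). Plates KM3, KM4 and KM2 held 111.7, 140.96 and 96.4 CPM. In the lymph node 0 of 98 GFP+ cells and 0 of 74 GFP- cells had a read, which allows shares of up to 3.06% and 4.05%, and 1 of 79 GFPlow cells did. Macrophages had 0.274 CPM from 3 cells. Both tumour endothelial gates, on 3 plates, therefore lay above every lymph node pool and above the macrophages of the same table. The gene (ENSMUSG00000035914.11) lies at chr9:58524298-58555437 on the minus strand.

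Lgals9 encodes galectin-9, a sugar-binding protein that acts on T cells, among other receptors through TIM-3 (Havcr2). In lymph node it was highest in GFP- cells, while GFP+ and GFPlow cells had similar summed levels. Single pools went opposite ways, with a log2 ratio of GFPlow over GFP+ cells of 0.93 within pool B and -2.92 within pool C. The level was 187.3 CPM (184.6 to 190.1) in GFP+, 190.7 CPM in GFPlow and 580.8 CPM (574.0 to 587.7) in GFP- lymph node cells, and 48.98%, 45.6% and 68.9% of the cells had a read. GFP- pools A, B and C held 571.4, 612.3 and 487.1 CPM. GFP+ pools held 159.1, 147.02 and 269.04 CPM, and GFPlow pools B, C and D held 280.6, 34.6 and 208.5 CPM. All 3 GFP- pools lay above the 6 others, and the log2 ratio of GFP+ over GFP- cells was -1.63, with -1.84, -2.05 and -0.85 within pools A, B and C.

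In tumour, Lgals9 was broadly present. It had 485.6 CPM in GFP+ cells (86.98% of cells), 757.3 CPM in GFP- cells (82 of 84) and 420.4 CPM in macrophages (73 of 81). Its median cell held 393.4, 692.5 and 296.4 CPM in these gates, while the median GFP+ and GFPlow lymph node cell held 0. The 4 tumour plates, at 420.4 to 757.3 CPM, and the GFP- lymph node pools covered similar ranges, and the GFP+ and GFPlow lymph node pools lay below both. The gene (ENSMUSG00000001123.15) lies at chr11:78962974-78984946 on the minus strand.

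Il7 encodes interleukin-7, the survival cytokine of naive T cells, which stromal and lymphatic endothelial cells of the node supply. It was found in the lymph node table and nearly nowhere else. Its level was 63.6 CPM in GFP+ (22 of 98 cells), 48.2 CPM in GFPlow (22 of 79) and 54.4 CPM in GFP- lymph node cells (12 of 74). One tumour GFP+ cell had reads (1.21 CPM), and 0 tumour GFP- cells, 0 macrophages and 0 blood cells did. The lymph node gates did not separate: GFP+ pools A, B and C held 25.03, 97.7 and 90.3 CPM, and GFP- pools held 80.2, 38.2 and 0 CPM. GFP+ cells were lower in pool A and higher in pools B and C. The gene (ENSMUSG00000040329.14) lies at chr3:7569994-7613760 on the minus strand and overlaps the antisense transcript Gm16685, which had 22.4 CPM in lymph node GFP+ and 0.671 CPM in GFP- cells.

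Tnfrsf11a encodes RANK, a receptor of the TNF family through which sinus lymphatic cells receive signals from RANKL. Its level was 39.2 CPM in GFP+, 47.998 CPM in GFPlow and 75.9 CPM in GFP- lymph node cells, and 22.4%, 30.4% and 24.3% of the cells had a read. Thinned to 100000 reads per cell, which evens out depth, the shares were 16.8%, 17.9% and 19.7%. GFP- pools were close to each other at 74.4, 77.6 and 76.1 CPM. GFP+ pools held 39.04, 20.9 and 56.7 CPM, all below the GFP- pools, whereas GFPlow pools ranged from 10.1 to 107.4 CPM. The GFP- level leaned on 1 cell: without it the level was 50.3 CPM, and the log2 ratio of GFP+ over GFP- cells moved from -0.94 to -0.35. In tumour, RANK reads were found in 16 GFP+ cells (9.47%, 9.30 CPM), 7 of 84 GFP- cells (10.8 CPM) and 34 of 81 macrophages (45.1 CPM). The GFP+ plates differed, with 4.22 CPM from 3 of 84 cells on KM3 and 14.04 CPM from 13 of 85 cells on KM4. It lies at chr1:105780718-105847981 on the plus strand.

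The ligand of RANK, RANKL (Tnfsf11, chr14:78277445-78308043), had 0 reads in all 592 kept cells. These zeros allow shares of up to 1.78% of tumour GFP+ cells and 3.06%, 3.8% and 4.05% of lymph node GFP+, GFPlow and GFP- cells.

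Ltbr encodes the lymphotoxin beta receptor, which drives lymph node organisation through non-canonical NF-kappaB signalling. It was present in each endothelial gate and in macrophages. Its level was 68.9 CPM in GFP+, 35.1 CPM in GFPlow and 70.4 CPM in GFP- lymph node cells, and 36.7%, 24.1% and 37.8% of the cells had a read. Tumour GFP+ cells had 89.1 CPM (53.8% of cells), tumour GFP- cells 109.4 CPM (69.05%) and macrophages 43.4 CPM (41.98%). Lymph node pools spread widely, from 1.72 CPM in GFPlow pool B to 112.3 CPM in GFP- pool A. Within pool A the GFP+ and GFP- cells held 110.4 and 112.3 CPM. The gates of the lymph node did not differ beyond that spread. Ltbr lies at chr6:125306571-125313885 on the minus strand.

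Across gates, 2 of the 6 measured members were at least 2-fold apart between lymph node GFP+ and GFP- cells, Il4i1 higher and Lgals9 lower. To count as measured, a gene needed 1 CPM or more in one of the groups and a read in 5% or more of that group's cells. Of all 11140 genes measured there, 39.3% were at least 2-fold apart, 20.1% higher and 19.2% lower, so the members' count is near the background. With pool A left out the count was 4 (Cd274 at 1.01 and Il7 at 1.56 joined), and with pool C left out it was also 4 (Cd274 at 1.04 and Tnfrsf11a at -1.22 joined).

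Between GFPlow and GFP- cells of the shared pools B and C, 3 of 6 measured members were at least 2-fold apart, against 55.8% of all genes (25.3% higher, 30.5% lower). Cd274 had a log2 ratio of 1.70 (2.12 and 1.07 within pools B and C) and Il4i1 of 1.31 (0.87 and 2.19). Lgals9 had -1.97 (-1.12 and -3.78). Each of the 3 kept its direction in both pools. With pool B left out, 5 were at least 2-fold apart, on the 14 and 8 cells of pool C. The comparison of GFPlow with GFP+ cells shares those cells, and in it 1 member, Il7 at -1.17, was at least 2-fold apart, against 45.9% of all genes (20.5% higher, 25.4% lower). Il7 there was at -0.63 within pool B and -1.97 within pool C, and at -0.47 without the cell with the most reads of it.

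In tumour, 2 of 6 measured members differed by at least 2-fold between GFP+ and GFP- cells, against 15.2% of all genes (6.95% higher, 8.25% lower). These were Cd274, higher, and Il4i1, lower at -3.56 with 36 reads in 1 cell against 1049 reads in 5 cells. Both rested on few cells: asking for reads in at least 10% of cells and 5 CPM left neither. Cd276, Lgals9, Tnfrsf11a and Ltbr had log2 ratios of 0.39, -0.64, -0.20 and -0.29. That of Tnfrsf11a was -1.18 with KM3 alone and 0.35 with KM4 alone. Against macrophages, tumour GFP+ cells differed by at least 2-fold in 4 of 5 measured members, against 44% of all genes (24.2% higher, 19.7% lower). Cd276 (6.65) and Ltbr (1.02) were higher, and Tnfrsf11a (-2.16) and Cd274 (-1.30) lower. Ltbr was at 0.74 without plate KM4, and Cd274 at -0.60 without plate KM3, so each fell under 2-fold on 1 plate.

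GFP+ cells of lymph node and tumour were set side by side as well, with tissue, plates and deposited table all differing between them. Of the members measured, 6 of 7 were at least 2-fold apart, against 47.1% of all genes (23.4% higher, 23.8% lower). Il4i1 (log2 ratio 9.95), Il7 (4.87), Cd274 (2.63) and Tnfrsf11a (1.96) were higher in lymph node. Lgals9 (-1.37) was lower there. Cd276 was lower as well, with 0 reads in 98 lymph node cells against 126.8 CPM from 76 tumour cells. No lower bound on its fold is given, because reads are PCR copies and 0 of 98 cells allows a share of up to 3.06%. Ltbr was at -0.37. With each pool or plate left out in turn, the same 6 kept their direction and stayed past 2-fold, and Ltbr reached -1.27 without pool A.

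**Figure D2:**
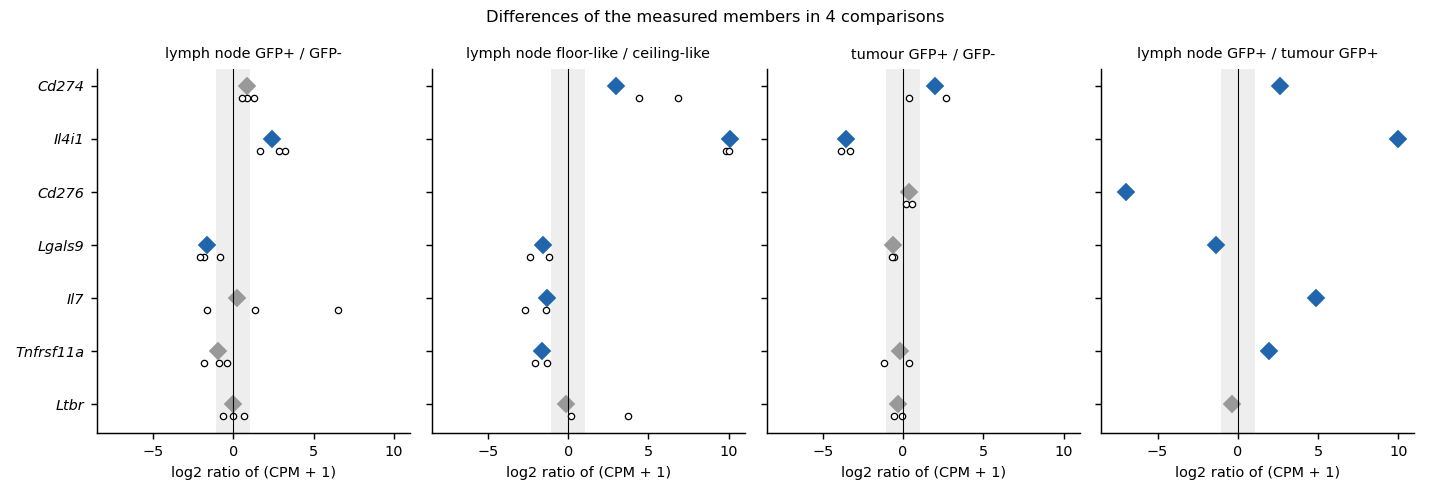
Log2 ratio of CPM + 1 of each measured member in 4 comparisons, with a diamond for all cells (blue where at least 2-fold apart, outside the grey band) and circles for single pools or plates. Il4i1 lay above 0 in each of the 3 lymph node pools and below 0 on both tumour GFP+ plates, each set against the same GFP- plate. The circles of Il7 in lymph node lay on both sides of 0.

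Because the gates of the lymph node mix endothelial types, the members were also read by cluster. Lymph node cells were clustered on genes that included none of the members, and clusters were named by fixed markers. Clusters of 47, 67 and 32 cells carried at least 6 of 7 sinus floor markers each and were sinus floor-like. One cluster of 25 cells carried 6 of 6 sinus ceiling markers and 1 of 7 floor markers, was led by Ackr4 and was ceiling-like. Further clusters were high endothelial venule-like (19 cells) and blood endothelial-like (29 cells), and 1 cluster of 32 GFP+ and GFPlow cells stayed unnamed. GFP+ cells fell into the floor-like clusters (86 cells) and the unnamed one (12), and into no other. The ceiling-like cluster held 22 GFP- and 3 GFPlow cells, so gate and cluster coincide to a large extent.

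Il4i1 followed the floor-like clusters. It had reads in 90.4% of floor-like cells at 1224 CPM, and in 3 of 25 ceiling-like cells at 0.144 CPM, from 3 reads. The floor-like clusters had 1068, 1501 and 945.9 CPM. Level was similar between gates within them: 1286 CPM in GFP+ (81 of 86 cells), 1143 CPM in GFPlow (46 of 54) and 1352 CPM in GFP- floor-like cells (5 of 6). The GFP- value rests on 6 cells, which are few. Within the GFP- gate alone, then, 6 floor-like cells had 1352 CPM and 22 ceiling-like cells 0.177 CPM. The high endothelial venule-like cluster was intermediate at 233.6 CPM, with reads in 12 of 19 cells, and the blood-like cluster had 73.1 CPM from 4 of 29 cells. The unnamed cluster, shallower than its gates, had 456.9 CPM, with reads in 25 of 32 cells.

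Cd274 was present in several endothelial types. It had 155.9, 140.8 and 93.8 CPM in the floor-like clusters, 129.6 CPM in high endothelial venule-like cells (11 of 19 cells) and 89.7 CPM in blood-like cells (4 of 29). In ceiling-like cells it had 16.2 CPM from 4 of 25 cells. The ratio between floor-like and ceiling-like cells was 2.96 on the log2 scale from summed reads. With the CPM of single cells averaged instead, the ceiling-like level was 64.9 CPM and the ratio 1.08.

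Il7 and Tnfrsf11a leaned towards the ceiling. Il7 had 141.3 CPM in ceiling-like cells (12 of 25 cells) and 54.8 CPM in floor-like cells (24.7%), against 2.75 CPM in high endothelial venule-like and 12.3 CPM in blood-like cells, where 1 cell each had reads. Tnfrsf11a had 151.2 CPM in ceiling-like (14 of 25) and 48.2 CPM in floor-like cells (26.7%), with 1.48 and 12.6 CPM in the venule-like and blood-like clusters. Both genes were thus found mainly in the lymphatic clusters. The difference between ceiling and floor rested in part on 1 cell for each gene: without the 1 cell with the most reads of the gene, the log2 ratio of floor-like over ceiling-like cells went from -1.35 to -0.90 for Il7 and from -1.63 to -0.99 for Tnfrsf11a. Thinned to 100000 reads, 39.1% of ceiling-like cells still had a read of Tnfrsf11a.

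Lgals9 had 551.1 CPM in ceiling-like, 622.8 CPM in blood-like and 394.6 CPM in venule-like cells. The floor-like clusters stood at 186.5, 190.9 and 187.1 CPM. Within the GFP- gate, however, the 6 floor-like cells had 544.8 CPM and the 22 ceiling-like cells 624.9 CPM. The gap between floor and ceiling was thus not seen inside that gate, and 6 cells are few. Ltbr had 113.6 CPM in blood-like cells and 25.02 to 89.99 CPM in the other clusters, with no common order.

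**Figure D3:**
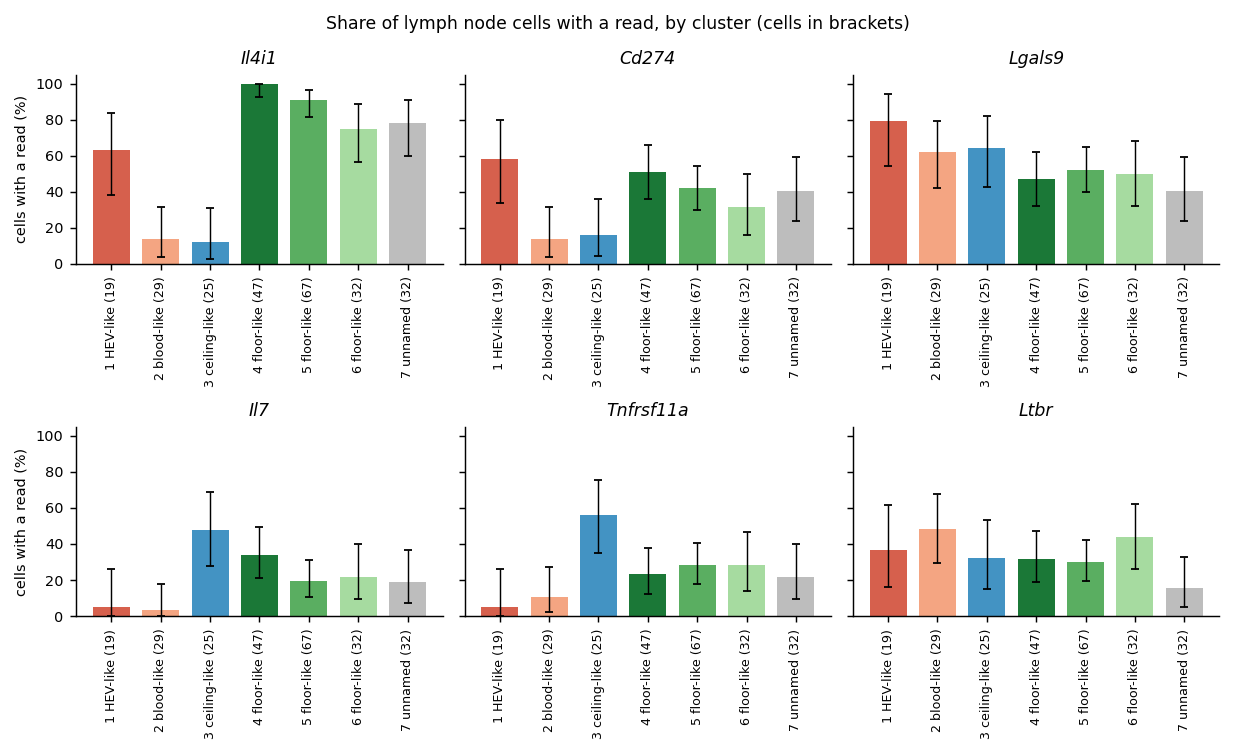
Share of cells with a read (%) of 6 members by lymph node cluster, with exact Clopper-Pearson 95% intervals; HEV-like is high endothelial venule-like. Il4i1 was found in 47 of 47, 61 of 67 and 24 of 32 cells of the floor-like clusters and in 3 of 25 ceiling-like cells, while Il7 and Tnfrsf11a had their highest shares, 12 and 14 of 25 cells, in the ceiling-like cluster.

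Between all lymphatic-like clusters and the 48 blood-like cells (the latter with the venule-like cluster), 4 of 6 measured members were at least 2-fold apart, against 46.5% of all genes (30.2% higher, 16.4% lower). Il4i1 (2.86), Il7 (2.90) and Tnfrsf11a (2.86) were higher and Lgals9 (-1.16) was lower in lymphatic-like cells, with Cd274 at 0.14 and Ltbr at -0.89. Lgals9, Cd274 and Ltbr depended on the pool: Lgals9 was at -0.73 within pool A and -1.55 within pool B, Cd274 at -0.10 and 1.86, and Ltbr at -0.15 and -2.06. Within the GFP- gate Lgals9 turned to 0.12, at 607.1 and 558.6 CPM, and Il4i1 fell to 0.80. Between floor-like and ceiling-like cells, a comparison added after the data were seen, 5 of 6 were at least 2-fold apart, against 48.8% of all genes (29.6% higher, 19.2% lower). Il4i1 and Cd274 were higher in floor-like cells and Lgals9, Il7 and Tnfrsf11a lower. Without pool A this count was 3, with Lgals9 at -0.91 and Il7 at -0.86.

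**Figure D4:**
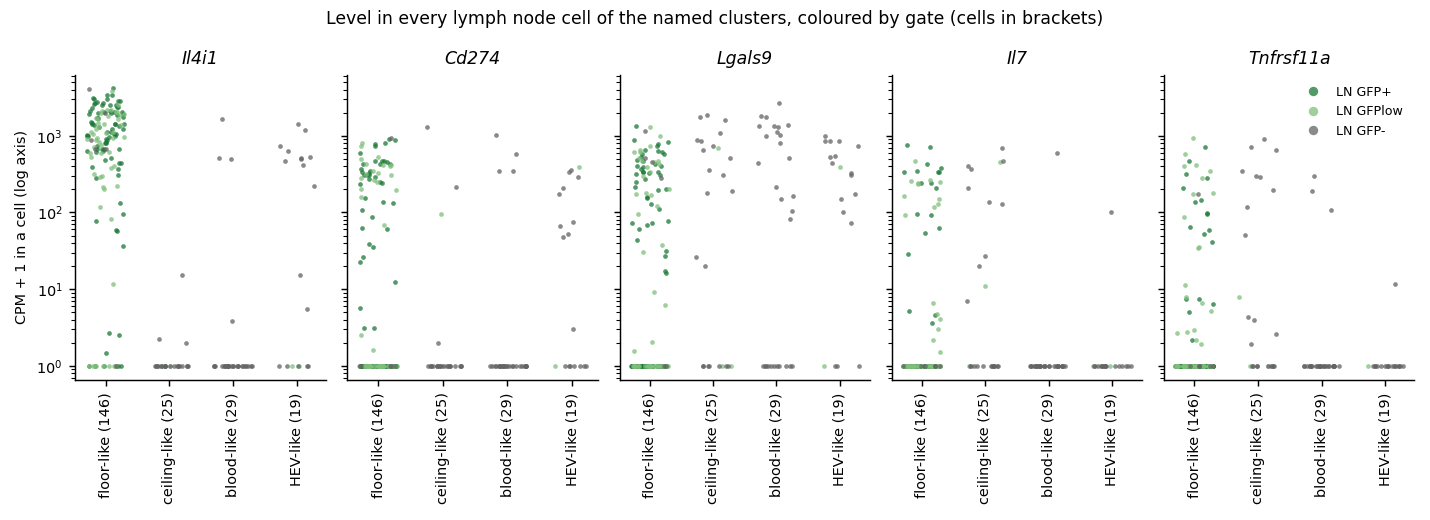
Level per cell (CPM + 1, log axis, each point 1 cell, coloured by gate) of 5 members in the floor-like, ceiling-like, blood-like and high endothelial venule-like (HEV-like) cells of lymph node. Il4i1 had reads in 90.4% of floor-like cells and in 3 of 25 ceiling-like cells, while most floor-like cells lay at 0 for Cd274, Il7 and Tnfrsf11a.

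Single cells often carried several members at once. The median lymph node GFP+ cell had reads of 3 members and the highest had 5, and 60 of 98 cells (61.2%) had reads of 3 or more. In each other lymph node and tumour gate the median was 2, and 27.2% to 48.1% of cells had 3 or more. Tumour GFP- cells, at 40.5%, lay above lymph node GFP- cells, at 33.8%. In lymph node GFP+ cells, Il4i1 had reads in 43 of the 47 cells with Cd274, which is 91.5% of them, against 96.1% of the cells without Cd274. In GFP- cells, Il4i1 had reads in 10 of 18 cells with Cd274 (55.6%), against 25% of the cells without Cd274. Of the 12 GFP- cells with Il7, 1 had Il4i1, and of the 22 GFP+ cells with Il7, 21 had it.

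In tumour the members varied by cluster too. Cd276 was lowest among endothelial clusters in those led by Fam64a and Gja4, at 48.2 CPM from 8 of 32 cells and 48.7 CPM from 3 of 25 cells. In the Gja4 cluster 1 cell held 52.6% of the reads, and without it the level was 24.3 CPM. Cd276 was highest in the unnamed cluster led by Pgf, at 199.8 CPM with reads in 29 of 49 cells. The blood-like cluster led by Tnfrsf9 had 152.9 CPM, from 37 of 57 cells. Among endothelial clusters Cd274 was highest in the unnamed one led by Ubd, at 53.6 CPM from 5 of 38 cells, and 0.540 CPM in the cluster led by Pgf. One cell held 72.8% of the reads in the Ubd cluster, and without it the level was 15.1 CPM, below the 22.6 CPM of the cluster led by Fam64a, which came from 1 cell. Lgals9 was present in all clusters, from 366.97 CPM in the smaller macrophage-like cluster to 837.05 CPM in the cluster led by Ubd.

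**Figure D5:**
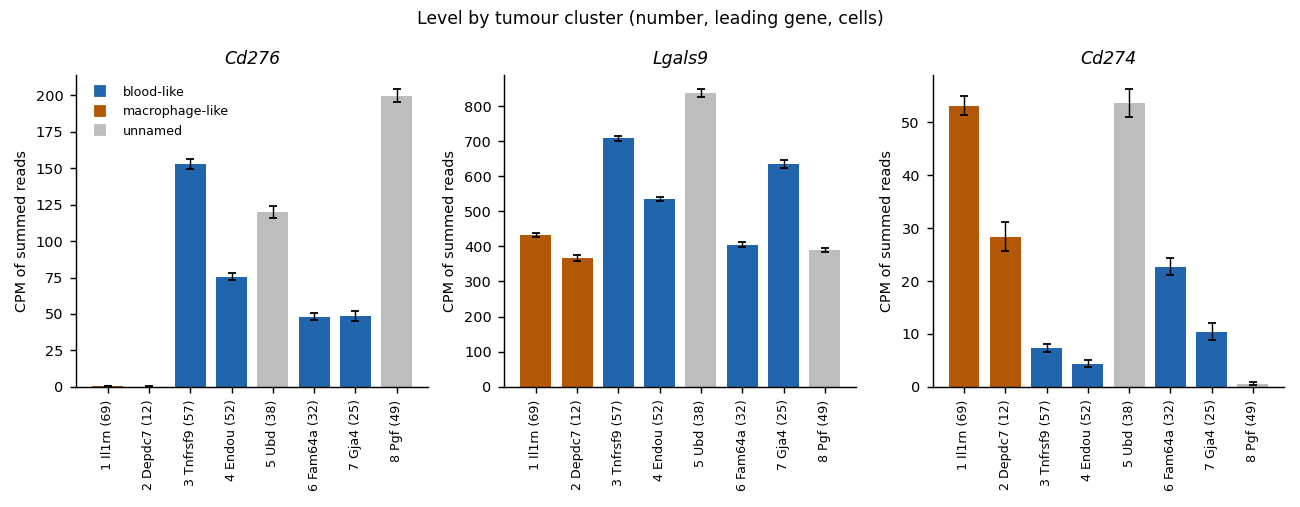
Level (CPM of summed reads, exact Poisson 95% intervals) of Cd276, Lgals9 and Cd274 in the 8 tumour clusters, given by number, leading gene and cells, and coloured by class. Cd276 stood at 48.2 to 199.8 CPM in the endothelial clusters and at or near 0 in both macrophage-like ones.

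The direct binding partners of the members were read in the same cells. PD-1 (Pdcd1) and CD80 (Cd80), which bind PD-L1, had 0 reads in all lymph node and tumour endothelial gates. Among macrophages Pdcd1 had reads in 3 cells (6.64 CPM) and Cd80 in 5 (3.51 CPM). TIM-3 (Havcr2) had reads in 35 of 81 macrophages, at 61.5 CPM, and in 1 tumour GFP+ cell, and in 0 lymph node cells.

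For IL-7, the receptor has a specific chain, Il7r, and the common gamma chain, Il2rg, shared with other cytokine receptors. Il7r had reads in 1 lymph node cell, 0 tumour endothelial cells, 3 of 81 macrophages and 2 of 7 blood cells. Il2rg, by contrast, had 3946 CPM in GFP+ (97 of 98 cells), 3736 CPM in GFPlow (77 of 79) and 1362 CPM in GFP- lymph node cells (62 of 74). In tumour endothelial gates and macrophages it had 291.9 to 329.5 CPM. Its pools were 2642 to 4633 CPM in GFP+ and 998.0 to 2416 CPM in GFP- cells, without overlap. By cluster, Il2rg had 3857 to 4427 CPM in floor-like, 2281 CPM in venule-like, 1276 CPM in ceiling-like and 405.7 CPM in blood-like cells.

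For the lymphotoxin receptor, the membrane ligand is built from lymphotoxin alpha (Lta) and beta (Ltb) chains, and LIGHT (Tnfsf14) binds it as well. Lta had 0 reads in all kept cells, and Tnfsf14 had reads only in 3 macrophages. Ltb had 368.3 CPM in GFP+ (75 of 98 cells), 379.3 CPM in GFPlow (60 of 79) and 97.7 CPM in GFP- lymph node cells (14 of 74), and 0 reads in both tumour endothelial gates. GFP- pools A, B and C held 22.4, 197.4 and 22.2 CPM of it. Floor-like clusters held 294.97 to 528.9 CPM of Ltb, against 37.6 CPM in ceiling-like cells and 0 in blood-like cells. The soluble RANKL decoy Tnfrsf11b had at most 3.08 CPM in any gate.

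Related genes were counted in lists, which were also chosen with earlier results of these data known. Beside each count stand the shares of all measured genes that were at least 2-fold higher and lower in the same comparison, and their median log2 ratio. Among 19 NF-kappaB signalling genes, all measured, which act downstream of RANK and the lymphotoxin receptor, 11 were at least 2-fold higher and 4 lower in lymphatic-like than in blood-like cells. Their median log2 ratio was 1.37, against 0.29 over all measured genes, of which 30.2% were higher and 16.4% lower. The kinase gene Map3k14, which starts the non-canonical branch, had 22.8 and 1.71 CPM, Rela 144.1 and 33.6 CPM and Birc2 660.8 and 160.8 CPM, while Ikbkg had 10.003 and 53.1 CPM. Between lymph node and tumour GFP+ cells, 10 of the 19 were higher in lymph node and 0 lower (median 1.23), against 23.4% and 23.8% of all genes (median -0.03). Examples were Relb at 269.7 and 29.97 CPM and Tnfaip3, a feedback inhibitor, at 262.04 and 18.1 CPM. Between floor-like and ceiling-like cells 7 of the 19 were higher and 1 lower (median 0.33), against 29.6% and 19.2% of all genes (median 0.16).

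Of 10 genes known to respond to lymphotoxin or RANK, 7 were measured in the floor and ceiling comparison, and 6 were higher in floor-like cells, with 0 lower (median 4.41), against the same 29.6% and 19.2% of all genes (median 0.16). Madcam1 had 1124 and 0.0959 CPM, and Glycam1, which encodes a mucin ligand of L-selectin, had 2179 and 14.3 CPM. Madcam1, Glycam1 and Ccl20 are also floor markers that named the clusters, so this count is no separate evidence.

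Among 16 IL-7 axis and homeostatic cytokine genes, 14 were measured between lymph node and tumour GFP+ cells, with 8 higher and 2 lower in lymph node (median 1.89), against 23.4% and 23.8% of all genes (median -0.03). The alarmin Il33 had 595.1 and 0.171 CPM and the signal transducer Stat5a 57.4 and 4.92 CPM. Between floor-like and ceiling-like cells 8 of 14 measured were higher and 3 lower (median 1.09), against 29.6% and 19.2% of all genes (median 0.16). Spns2, which exports the lymphocyte attractant sphingosine 1-phosphate, had 40.9 CPM in floor-like and 299.7 CPM in ceiling-like cells, and Tslp had 0.377 and 15.5 CPM.

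Among 13 further PD-1 and B7 family ligands and related surface proteins, 8 were measured between lymphatic-like and blood-like cells, with 2 higher and 4 lower (median -0.60), against 30.2% and 16.4% of all genes (median 0.29). Nectin2 had 603.4 and 139.2 CPM and Vsir, which encodes VISTA, 329.2 and 79.7 CPM. Cd200 had 27.4 and 995.8 CPM. In the comparison of lymph node with tumour GFP+ cells, Vsir had 242.3 and 11.6 CPM and Cd200 21.5 and 884.2 CPM. Some of these ligands were higher and others lower in each vessel type.

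Of 15 suppressive enzymes and cytokines other than Il4i1, 5 were measured between lymphatic-like and blood-like cells, with 0 higher and 3 lower (median -2.28), against 30.2% and 16.4% of all genes (median 0.29). Entpd1, which encodes the ATP-degrading enzyme CD39, had 1.16 and 575.0 CPM there. In tumour GFP+ cells it had 983.8 CPM, against 2.28 CPM in lymph node GFP+ cells. Nos2, which encodes inducible nitric oxide synthase, had 83.6 CPM in floor-like cells and 0 reads in ceiling-like cells. Of 5 galectins and galectin ligands other than Lgals9, 4 were measured between floor-like and ceiling-like cells, with 1 higher and 1 lower (median 0.23), against 29.6% and 19.2% of all genes (median 0.16). Lgals8 was higher in floor-like cells (218.9 and 56.2 CPM) and Lgals1 lower (50.2 and 103.2 CPM).

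Of 15 interferon gamma response genes and regulators of PD-L1, all measured, 5 were higher and 1 lower in floor-like cells than in ceiling-like cells, with a median of 0.04, against 29.6% and 19.2% of all genes and a median of 0.16. Cxcl10 had 396.7 and 79.4 CPM and the receptor gene Ifngr2 284.997 and 107.2 CPM, while Gbp2 had 48.5 and 148.2 CPM. Between tumour GFP+ and GFP- cells the lists stayed mostly within 2-fold: of 19 NF-kappaB genes 1 was higher and 2 lower (median -0.03), and of 14 measured interferon gamma genes 1 was higher and 1 lower (median 0.05). Of all genes 6.95% were higher and 8.25% lower there (median -0.12).

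The genes whose levels ran most like a member's were ranked by Pearson's r of log2(CPM + 1) over the 14 combinations of gate and pool or plate with at least 5 cells, among 7530 candidate genes. The units include the 6 kept blood GFP+ cells of pool D, which go against their label. All units share gates, tables and depth, so r is a description. For Il4i1 they were Slc39a4 (0.992), Meis2 (0.982) and Atp6v0e2 (0.979). For Cd274 they were the complement gene C2 (0.874), Ltb (0.862) and the class I-like gene H2-T23 (0.859). Cd276 had Ccdc85c (0.947), Apln, the vascular peptide apelin (0.946), and Akr1b8 (0.946), Il7 had Flrt3 (0.966), Hoxd9 (0.964) and Samd14 (0.960), and Lgals9 had Wsb1 (0.916), Gpi1 (0.908) and Krr1 (0.900). Tnfrsf11a and Ltbr had Siae (0.938) and Ubr7 (0.932) in first place.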

How the data were processed

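Single cells were amplified with SMART-seq2, a full-length protocol without molecular identifiers. The deposited tables hold raw counts of reads per gene, made by the authors on mm10. Tools named in the submitters' processing notes are Subread (1.4.6-p2), STAR (2.4.1b) and FastQC (0.11.4). Whether counting used strand is not given in the sources used here. Of 768 wells, 2 were empty (59 and 82 reads, 0 of them in members); 592 of 766 cells passed at least 50000 reads, 1000 genes and at most 25% mitochondrial reads. Rows sharing a symbol (92) were summed. With single cells sorted into wells, no doublet caller was run.

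Each gate was 1 sample, so no test was run. Ratios are log2 of CPM + 1, and a gene was called apart at 2-fold. Zero shares are bounded by 3 cells. The script was tested on simulated data. The members and gene lists were chosen with earlier results of these data known. All 9 members are named; list examples are the up to 4 measured genes of largest ratio per list and comparison, and the 3 genes most like a member by r are ranked. Direct binding partners were added after the data were seen, as were the rule that names clusters and the floor and ceiling comparison. Clustering (scanpy 1.11.5, 2000 variable genes, 20 components, 15 neighbours, Leiden resolution 1) left out members and listed genes. A class needed 3 markers in at least 30% of a cluster's cells. A cluster with many predicted genes, or genes of another class, in the lead stayed unnamed. Positions are from GENCODE vM21 on GRCm38. Python 3.11.15, numpy 2.4.6, pandas 2.3.3 and scipy 1.17.1 were used. Alternatives were other filters, pseudocounts, thinning, per-cell means, named clusters alone and each pool or plate left out.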

Additional observations from a re-analysis of the deposited data

Results flagged for a closer look

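The log2 ratio of Il4i1 in GFP+ over GFP- cells had opposite signs in the 2 tissues. It was 2.4 in lymph node, positive in each of the 3 pools. Within the floor-like clusters there, the level was similar between gates, with few GFP- cells. In tumour the ratio was -3.56, negative on both GFP+ plates. Both were set against the same 1 GFP- plate, so they are no separate support. Reads in tumour came from 1 GFP+ cell and 5 GFP- cells. Il4i1 counted as measured there only through the GFP- cells, at 5.95% against the limit of 5%. The difference between the tissues was not tested.

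Reads of 2 members stood well above 0 in the blood cells, which no comparison between groups used. Cd274 had 29.92 CPM, from 3 of 7 cells, and Lgals9 had 540.4 CPM, from 4 of 7. The pan-haematopoietic markers read in these cells are given with the sort check, and their part in the result was not tested.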

How the results depend on the processing

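For 79 of 91 recomputed counts of members at least 2-fold apart, the value stayed within 1.5 times the count given. The count for lymph node GFP+ against GFP- cells (2) became 4 without pool A and 4 without pool C. For GFPlow against GFP- cells (3) it was 5 without pool B. For GFPlow against GFP+ cells (1) it was 0 in named clusters alone, 2 by the mean of per-cell CPM, 2 after thinning, 2 with no filter on low values, 4 without pool B and 3 without pool C. For tumour GFP+ against GFP- cells (2) it was 0 with the higher filter, and for tumour GFP+ cells against macrophages (4) it was 7 with no filter on low values. For floor-like against ceiling-like cells (5) it was 3 without pool A. The filter settings change which genes count as measured, and leaving out a pool reduces the cells; otherwise the cause was not tested. Of 597 recomputed log2 ratios, 400 moved (outside the counting interval of the ratio or, with the top cell left out, by any amount), and 1 called ratio changed sign: Lgals9 in lymphatic-like against blood-like cells, at 0.12 within the GFP- gate. Of the recomputed shares of cells, 23 moved outside their interval. No paired analysis was possible because the labels give no animal, each gate is 1 sample and no test was run; the ratios within shared pools stand beside the pooled ones in its place. Lymphatic-like against blood-like cells without a cell filter was not run, as unfiltered cells were not clustered. For genes at 0, depth and the number of cells set the limits given beside them.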
